A study of Mus musculus with 19 samples.

Results

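Gene expression was compared at 14 days between mouse retina cells that had received a Pou3f1 plasmid and cells that had received a control Gfp plasmid. Both groups were wild-type CD1 pups, electroporated in the eye on postnatal day 1. Dissociated retinas were sorted for GFP fluorescence, and sorted samples were combined to 150000 cells per replicate. There were 4 Gfp and 5 Pou3f1 libraries, 9 of the 19 in the series. The library labels give 14 days after electroporation as the time of collection, while the treatment protocol gives postnatal day 14. An earlier pair of groups, 3 Gfp and 3 Pou3f1 libraries collected 48 h after the same procedure, is used below for contrast. The sources used here do not give the promoter that drives the transgene or the number of animals in a pool. The labels tie no library to separate animals, so p-values rest on a spread between libraries that may be technical.

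The genes described are the 15696 of 23635 in the 14 day table whose mean normalized count over the libraries was at least 10. They hold 99.963% of all mean counts. The least abundant gene kept had a mean of 10.0008 and the most abundant gene left out 9.994. Of the 7939 genes left out, 2128 had an adjusted p and 87 of these passed the test. The deposited table is a finished comparison with no value per library, so levels in single samples, their spread and the depth of each library are unknown. Mean counts of all genes summed to 38507500. Every fold change is the authors' shrunken log2 value for Pou3f1 over Gfp with its standard error (SE), and "rose" and "fell" are used where the authors' adjusted p was under 0.05. Of the kept genes, 15661 had an adjusted p and 35 had no p-value.

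Pou3f1 belongs to the POU family of transcription factors, which bind DNA through a POU domain and a homeodomain, classically at the octamer motif. It acts in developing neurons and in Schwann cells, where it drives the promyelinating stage. In the retina it is studied in ganglion cells, the neurons whose axons leave the eye. Electroporation on the day after birth reaches mainly dividing progenitors, whose later offspring are rods, bipolar cells, amacrine cells and Müller glia.

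At 14 days, 3603 of 15661 genes (23.0%) differed between the groups, 1983 of them higher (12.7%) and 1620 lower (10.3%) in the Pou3f1 cells. Rises were larger than falls. At least 2-fold rises numbered 411, at least 4-fold rises 61 and at least 8-fold rises 22. At least 2-fold falls numbered 65, and no called fall reached 4-fold, the largest being -1.70 on the log2 scale. The median log2 fold change was 0.60 among risen genes, -0.49 among fallen genes and -0.01 over all tested genes. Falls weighed more on abundant genes. Among 612 genes with a mean count of at least 10000, 5.72% rose and 29.9% fell, while among 3328 genes between 10 and 100, 11.6% rose and 6.46% fell. Fallen genes made up 26.1% of the summed mean counts and risen genes 8.23%. In sorted bulk samples such as these, fewer cells of a type and less RNA per cell cannot be told apart.

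**Figure D1:**
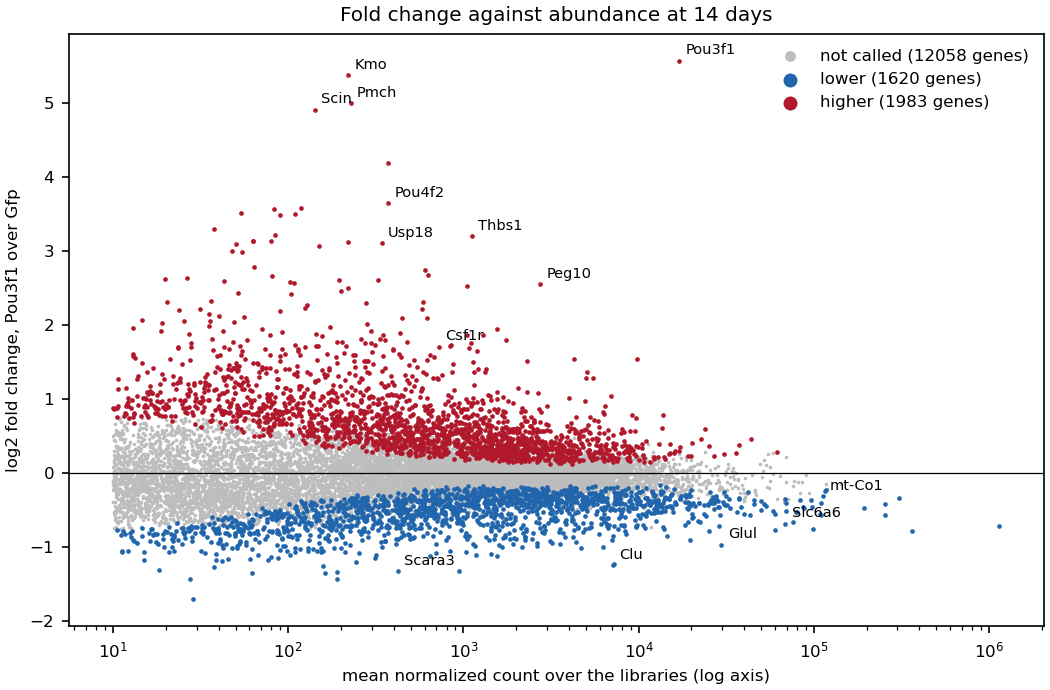
Log2 fold change of Pou3f1 over Gfp at 14 days against the mean normalized count (log axis), with 1 point per gene. Red points are the 1983 genes called higher, blue points the 1620 called lower and grey points the 12058 not called; rises reach 5.57 and falls -1.70.

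Pou3f1, the gene on the plasmid, had the largest change of the genes with a mean count of at least 100. It rose by 5.57 ± 0.27, a 47.6-fold difference, with 16972 normalized counts on average (the authors' deposited table, adjusted p = 3.40e-88). The sign of the table was read from Pou3f1, so its rise is no independent check of the labels. The largest rises of other genes came from unrelated families. Kmo, kynurenine 3-monooxygenase of tryptophan breakdown, rose by 5.38 ± 0.24 at a mean count of 220.3 (the authors' deposited table, adjusted p = 3.85e-108). Pmch, the precursor of the neuropeptide melanin-concentrating hormone, rose by 5.001 ± 0.26 at a mean count of 228 (the authors' deposited table, adjusted p = 4.56e-78). Melanin-concentrating hormone is known from neurons of the lateral hypothalamus. Scin, the actin-severing protein scinderin, and Myo18b, an unconventional myosin of striated muscle, followed with 4.91 ± 0.25 and 4.19 ± 0.21 (the authors' deposited table, adjusted p from 1.31e-86 to 2.14e-81).

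Transcription factors and secreted proteins filled much of the rest of the leading rises. Pou4f2 (3.64 ± 0.26), a POU factor of ganglion cells, Eomes (3.07 ± 0.26), a T-box factor, and Ebf3 (2.68 ± 0.24), a factor of neuronal differentiation, rose (the authors' deposited table, adjusted p from 7.86e-40 to 5.83e-26). L3mbtl4, of a chromatin-binding protein family, rose by 3.58 ± 0.25 (the authors' deposited table, adjusted p = 1.37e-41). Among secreted proteins, Fst (3.50 ± 0.24), the activin antagonist follistatin, Thbs1 (3.21 ± 0.24), the matrix protein thrombospondin 1, and Col24a1 (2.62 ± 0.30), a fibrillar collagen, rose (the authors' deposited table, adjusted p from 3.32e-44 to 2.62e-16). Rab3b (3.12 ± 0.17), a small GTPase of secretory vesicles, and the imprinted, retrotransposon-derived gene Peg10 (2.55 ± 0.13, mean count 2739.9) rose (the authors' deposited table, adjusted p from 7.18e-81 to 3.58e-68). Usp18 and Ifi27, also among these rises, are interferon-induced and are described with the immune genes.

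**Figure D2:**
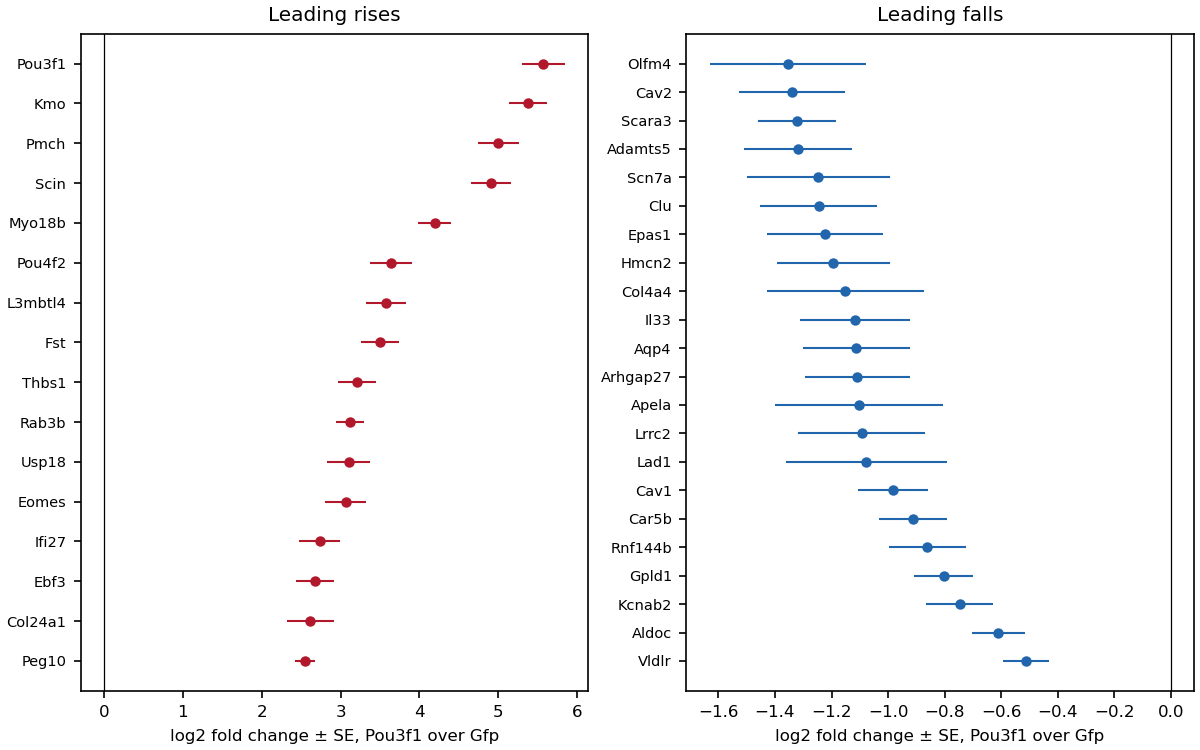
Leading changes at 14 days by log2 fold change or by test statistic, limited to genes with a mean count of at least 100: 16 rises on the left and 22 falls on the right. Points are log2 fold changes of Pou3f1 over Gfp and bars are SE; the rises run from 2.55 to 5.57 and the falls from -0.51 to -1.35, and no bar crosses 0.

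The 22 leading falls were smaller than the leading rises and came from genes of several kinds. Clu, the chaperone clusterin that Müller glia make in quantity, fell by 1.25 ± 0.21 at a mean count of 7162 (the authors' deposited table, adjusted p = 1.37e-07). Cav1 (-0.98 ± 0.12) and Cav2 (-1.34 ± 0.19), the caveolins that form surface pits called caveolae, lie side by side at chr6:17306335-17341452 and chr6:17281185-17289115 (mm10) and both fell (the authors' deposited table, adjusted p from 2.21e-13 to 1.01e-10). Epas1 encodes the hypoxia-induced factor HIF-2α and fell by 1.22 ± 0.21 at a mean count of 7203 (the authors' deposited table, adjusted p = 2.14e-07). Aqp4 (-1.11 ± 0.19), the water channel of glial endfeet, and Il33 (-1.12 ± 0.19), an alarmin cytokine of glia, also fell (the authors' deposited table, adjusted p from 3.55e-07 to 6.71e-07). Matrix genes were Adamts5 (-1.32 ± 0.19), a proteoglycan-cleaving protease, Col4a4 (-1.15 ± 0.28), a basement membrane collagen, and Hmcn2 (-1.19 ± 0.20), a hemicentin, (the authors' deposited table, adjusted p from 5.47e-10 to 6.86e-04).

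Scara3, a scavenger receptor family gene, had the largest negative test statistic of these falls, at -1.32 ± 0.14 (the authors' deposited table, adjusted p = 5.16e-19). It lies beside Clu on chromosome 14, at chr14:65919394-65953935 and chr14:65968483-65981547 (mm10). Olfm4 (-1.35 ± 0.28), a secreted olfactomedin, Scn7a (-1.25 ± 0.25), an atypical sodium channel, Arhgap27 (-1.11 ± 0.19), a GTPase activating protein, and Lrrc2 (-1.09 ± 0.22), a leucine-rich repeat protein, fell (the authors' deposited table, adjusted p from 2.04e-07 to 4.12e-05). Apela (-1.10 ± 0.30), a peptide ligand of the apelin receptor, and Lad1 (-1.08 ± 0.28), the basement membrane protein ladinin, completed the largest falls (the authors' deposited table, adjusted p from 0.00215 to 0.00271). Smaller falls with low SE were those of Gpld1 (-0.80 ± 0.10), a GPI-specific phospholipase, Car5b (-0.91 ± 0.12), a mitochondrial carbonic anhydrase, and Rnf144b (-0.86 ± 0.14), a ubiquitin ligase, (the authors' deposited table, adjusted p from 4.03e-12 to 2.92e-08).

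Genes were then read by 63 lists, each set against the 12.7% of all tested genes that rose, the 10.3% that fell and their median of -0.01. Retinal markers set the frame. Of 35 rod genes tested, 0 rose and 28 fell, with a median log2 fold change of -0.47. Of 16 cone genes, 0 rose and 12 fell, with a median of -0.67. Rod genes hold 10.2% of all mean counts, from the authors' deposited table. Nrl (-0.26 ± 0.11) and Nr2e3 (0.27 ± 0.11), the rod fate factors, did not pass (the authors' deposited table, adjusted p from 0.0747 to 0.0889). The letters TAATCC, a site of the photoreceptor factor Crx, stood on either strand in the 250 bases before the start in 9 of 22 RefSeq promoters (40.9%) of fallen rod genes and in 5.37% of promoters of all kept genes. Promoters of rod genes that did not fall were not counted apart, so this share cannot be tied to the fall. Bipolar cell genes gave 3 rises and 3 falls of 23, and amacrine and horizontal cell genes 5 rises and 0 falls of 24.

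**Figure D3:**
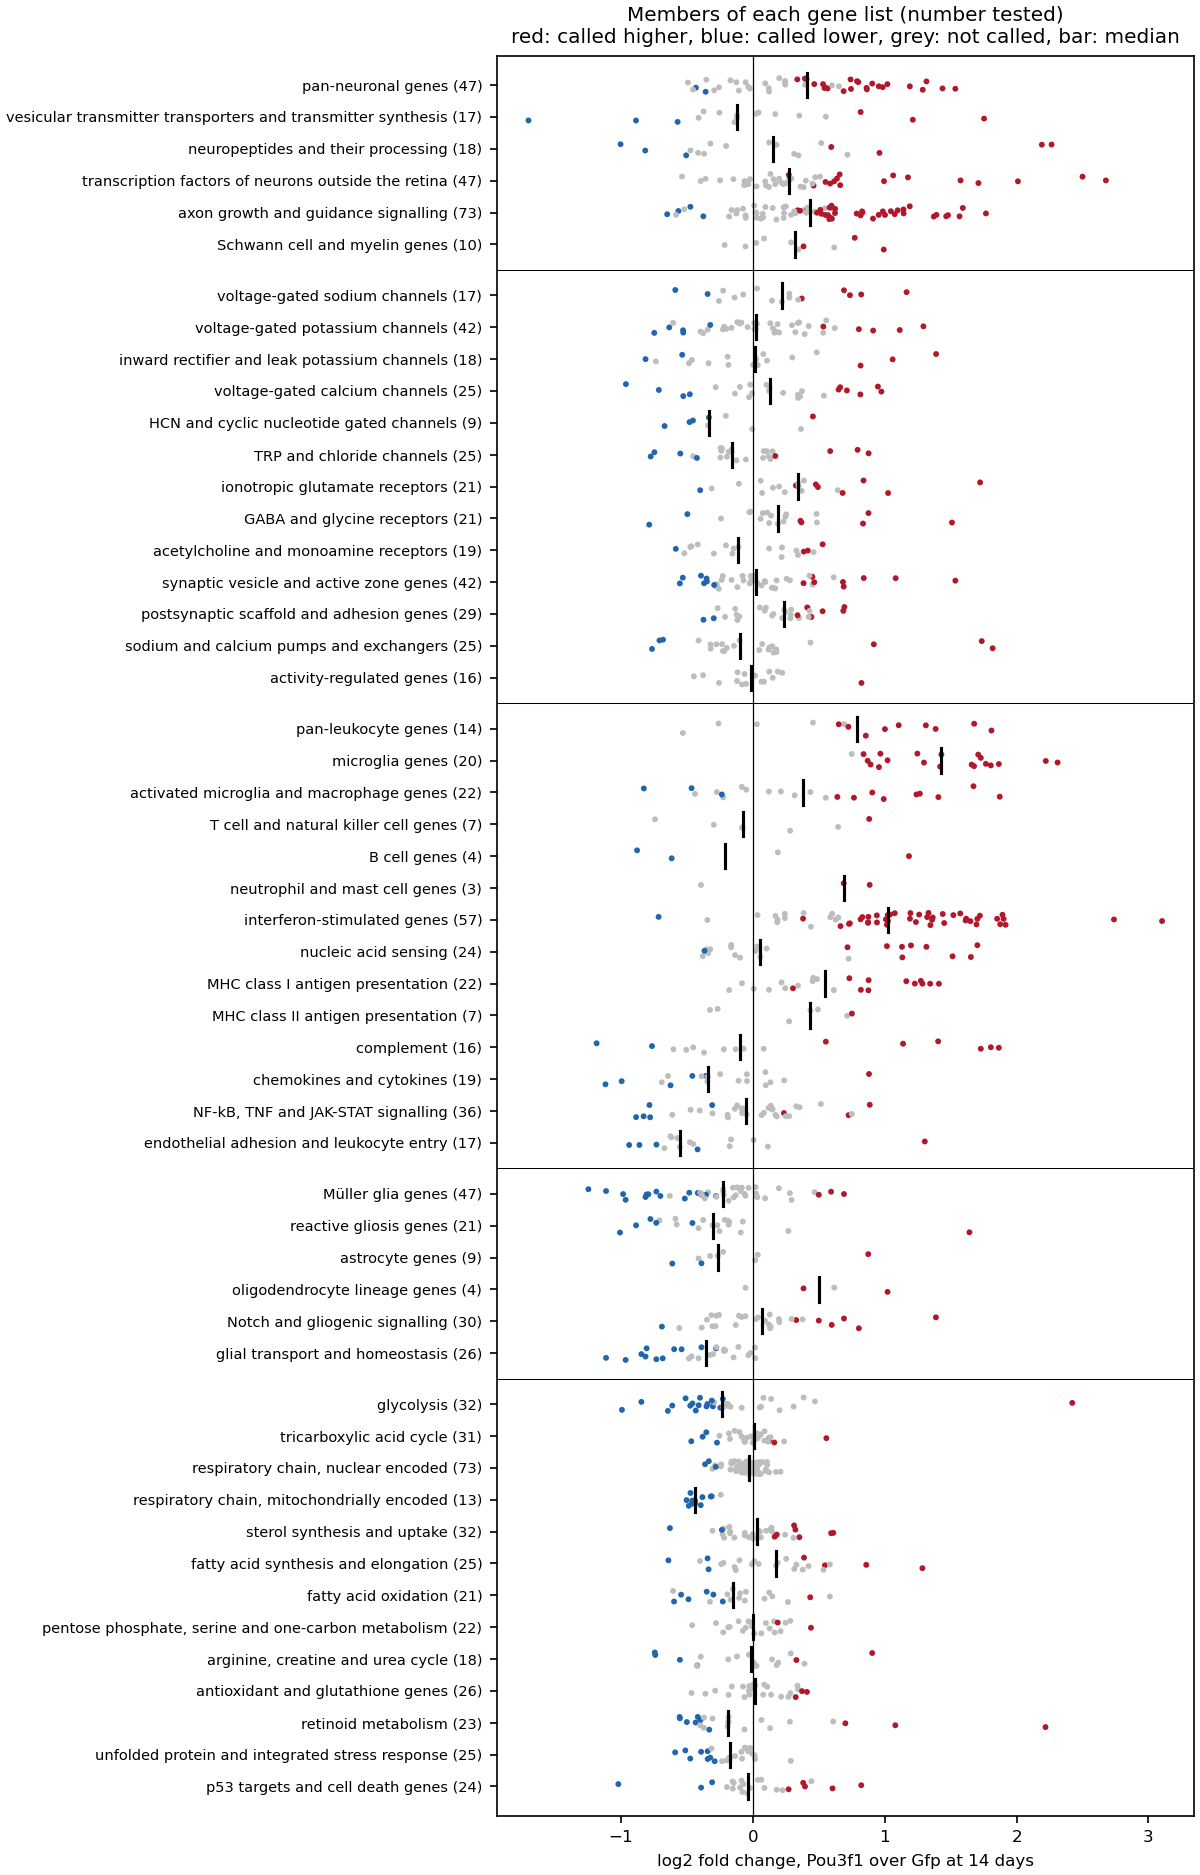
Log2 fold changes of Pou3f1 over Gfp at 14 days for the tested members of 52 gene lists, with the number tested in brackets and lists grouped as neuronal, excitability, immune, glial and metabolic. Red and blue points passed higher and lower, grey points did not pass, and bars are medians; microglia genes (median 1.43) and interferon-stimulated genes (1.02) lie farthest to the right.

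Genes of neuronal identity were mostly higher in the Pou3f1 cells. Of 47 pan-neuronal genes, 24 rose, 2 fell and 21 did not pass, with a median log2 fold change of 0.41. Dcx (1.44 ± 0.25), doublecortin of migrating neurons, Basp1 (1.29 ± 0.17) and Gap43 (0.99 ± 0.21), growth cone proteins, and Stmn4 (1.19 ± 0.19), a tubulin-binding stathmin, rose (the authors' deposited table, adjusted p from 4.48e-12 to 6.93e-05). Cplx2, the release regulator complexin 2, rose by 1.54 ± 0.22 at a mean count of 9819 (the authors' deposited table, adjusted p = 9.11e-10). The neuronal RNA-binding protein genes Elavl2 (1.32 ± 0.22) and Elavl3 (0.86 ± 0.24) and the tubulin gene Tubb3 (0.41 ± 0.13) rose (the authors' deposited table, adjusted p from 9.60e-08 to 0.014). Neurofilament genes of mature axons had values of -0.12 ± 0.24 for Nefl and 0.20 ± 0.23 for Nefm in the authors' deposited table and did not pass (adjusted p from 0.579 to 0.765). Rbfox3 (0.40 ± 0.24), known as NeuN, Stmn2 (0.60 ± 0.28) and Elavl4 (0.65 ± 0.28) did not pass (the authors' deposited table, adjusted p from 0.0756 to 0.239). The members that fell were Nefh (-0.36 ± 0.13), the heavy neurofilament, and Sncb (-0.43 ± 0.09), beta-synuclein, (the authors' deposited table, adjusted p from 1.21e-04 to 0.0345), both picked after their values were seen because they are the only falls.

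A further list held transcription factors known from neurons outside the retina, though its members are not limited to such neurons. Which cells expressed them was not tested. Called genes of this list were higher. Of 47 tested, 17 rose and 0 fell (0 with p under 0.05 before adjustment), with a median of 0.27. Bcl11a (2.50 ± 0.23) and Bcl11b (2.01 ± 0.30), zinc finger factors of cortical and spinal neurons, rose (the authors' deposited table, adjusted p from 5.92e-24 to 1.60e-09). Tshz3 (1.58 ± 0.18), a teashirt zinc finger factor, and Ebf4 (0.99 ± 0.14), a paralog of Ebf3, rose (the authors' deposited table, adjusted p from 2.02e-16 to 2.89e-11). Of the 63 factors in the list, 16 fell under the abundance limit or are not in the table, among them the autonomic factor Phox2a (mean count 0.65) and the sensory factor Tlx3 (mean count 1.11) in the authors' deposited table; these names were picked after the values were seen.

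Axon growth and guidance genes rose in larger number. Of 73 tested, 37 rose, 4 fell and 32 did not pass, with a median of 0.43. Cntn2 (1.47 ± 0.19), an axonal adhesion protein, Nell2 (1.48 ± 0.15), a secreted ligand of Robo3, and Epha3 (0.91 ± 0.10), an ephrin receptor, rose (the authors' deposited table, adjusted p from 7.16e-20 to 7.03e-12). Slitrk1 (1.39 ± 0.18), a neurite-regulating membrane protein, and Fstl4 (1.77 ± 0.18), a follistatin-like protein, rose (the authors' deposited table, adjusted p from 4.56e-20 to 3.79e-12). Robo, Eph, ephrin, plexin and contactin genes were among the risen members. The 4 members that fell, picked for that after their values were seen, were Unc5b (-0.65 ± 0.24) of the netrin receptors, the netrins Ntn4 (-0.56 ± 0.15) and Ntng2 (-0.47 ± 0.15), and Sema3f (-0.37 ± 0.14) (the authors' deposited table, adjusted p from 0.00315 to 0.0474). Schwann cell and myelin genes, the classical setting of Pou3f1, gave 3 rises of 10 tested: Egr2 (0.77 ± 0.28), the factor of myelinating Schwann cells, Ugt8a (0.99 ± 0.30), an enzyme of myelin lipids, and Mbp (0.39 ± 0.10), myelin basic protein, (the authors' deposited table, adjusted p from 0.00103 to 0.0323).

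Transmitter genes moved in both directions. Of 17 genes of transmitter synthesis and transport, 3 rose and 3 fell, 17.6% each way against 12.7% and 10.3% of all tested genes. Gad1 (0.82 ± 0.26) and Gad2 (1.21 ± 0.23), which make GABA, rose (the authors' deposited table, adjusted p from 9.35e-06 to 0.0123), and the vesicular GABA transporter Slc32a1 (0.55 ± 0.24, adjusted p = 0.0774) did not pass. Slc5a7, the choline transporter, rose by 1.75 ± 0.29 at a mean count of 27.8 (the authors' deposited table, adjusted p = 1.85e-07), while Chat had -0.41 ± 0.29 and did not pass (adjusted p = 0.336). Slc17a7, the glutamate transporter of photoreceptor and bipolar vesicles, fell by 0.57 ± 0.16 at a mean count of 110174 (the authors' deposited table, adjusted p = 0.00485). Slc17a6, the corresponding transporter of ganglion cells, had -0.37 ± 0.25 and did not pass (the authors' deposited table, adjusted p = 0.295). Tph2, which starts serotonin synthesis, fell by 1.70 ± 0.27 at a mean count of 28.4 (the authors' deposited table, adjusted p = 1.70e-08), the largest fall of all called genes.

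Of 18 neuropeptide and peptide-processing genes with a p-value, 4 rose (22.2%) and 3 fell (16.7%). The list did not hold Pmch, whose rise is given above, and its member Calca (1.14 ± 0.30) had no p-value. The prohormone convertase gene Pcsk1 (2.27 ± 0.20), the tachykinin precursor Tac1 (2.19 ± 0.25), the neurotensin precursor Nts (0.96 ± 0.29) and the synaptic organiser Cbln2 (0.60 ± 0.21) rose (the authors' deposited table, adjusted p from 1.80e-26 to 0.0282). The prodynorphin gene Pdyn fell by 1.002 ± 0.19 (the authors' deposited table, adjusted p = 9.08e-06). Another 12 peptide genes were under the abundance limit. They included those of corticotropin-releasing hormone, Crh (mean count 0.98), thyrotropin-releasing hormone, Trh (0.87), oxytocin, Oxt (1.71), and vasopressin, Avp (0.12), other hypothalamic peptides than that of Pmch, in the authors' deposited table; they were picked after the values were seen.

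The promoters of the genes were searched for the POU octamer, ATGCAAAT on either strand, in the 250 bases before the transcript start. The sequences are RefSeq promoters on GRCm38.p6, and 11819 of 15680 gene symbols had at least 1. The octamer stood in 1.7% of 2001 promoters of risen genes, 1.32% of 1512 promoters of fallen genes, 1.25% of 15097 promoters of all kept genes and 1.6% of all 32851 promoters in the table. Among risen genes of at least 2-fold it stood in 11 of 368 promoters (2.99%). A match describes these letters and is no evidence of binding. The windows of 60 bases below show the octamer in capitals, 5′ to 3′ on the strand of the gene, for 3 genes that rose and 1 that fell; Col25a1 and Rgs4 were picked after their values were seen.
Aldh1a2: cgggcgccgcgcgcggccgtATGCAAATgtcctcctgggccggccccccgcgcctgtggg
Col25a1: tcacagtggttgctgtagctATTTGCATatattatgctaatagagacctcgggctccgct
Rgs4: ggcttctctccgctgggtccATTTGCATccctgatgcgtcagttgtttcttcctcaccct
Il33: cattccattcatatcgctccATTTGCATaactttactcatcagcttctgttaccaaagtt
They lie at chr9:71215685-71215744 (plus strand) for Aldh1a2, a retinoic acid synthesis enzyme, and chr3:130180658-130180717 (plus) for Col25a1, a transmembrane collagen of neurons. The other windows are chr1:169747760-169747819 (minus) for Rgs4, a regulator of G protein signalling, and chr19:29945683-29945742 (plus) for 1 of the promoters of Il33. The octamer ends 77, 160, 150 and 80 bases before the start, in that order. Log2 fold changes were 2.22 ± 0.30 for Aldh1a2, 2.46 ± 0.25 for Col25a1, 1.31 ± 0.26 for Rgs4 and -1.12 ± 0.19 for Il33 (the authors' deposited table, adjusted p from 2.06e-20 to 2.04e-05), so the motif stood before genes that moved in opposite directions.

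In most channel families some genes rose and some fell, as among all tested genes, of which 12.7% rose and 10.3% fell. Voltage-gated sodium channels carry the action potential upstroke. Of 17 such channel and partner genes, 5 rose (29.4%) and 2 fell (11.8%), with a median of 0.22. Scn9a (1.17 ± 0.28) and Scn3a (0.69 ± 0.19), channels of sensory and of developing neurons, rose (the authors' deposited table, adjusted p from 5.63e-04 to 0.00395), as did the channel-binding factors Fgf14 (0.82 ± 0.23) and Fgf11 (0.37 ± 0.13) (the authors' deposited table, adjusted p from 0.00413 to 0.026). Scn8a, the main channel of mature axon initial segments, fell by 0.34 ± 0.11 (the authors' deposited table, adjusted p = 0.0174).

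Potassium channels return the membrane to rest. Of 42 voltage-gated members, 5 rose and 5 fell, with a median of 0.03; at 11.9% each way, these shares lie near those of all genes. Rising members included Kcnd2 (0.91 ± 0.24) and Kcnd3 (0.53 ± 0.14), pore subunits of the A-type channel complex, and its auxiliary subunit Dpp10 (1.11 ± 0.22) (the authors' deposited table, adjusted p from 1.29e-05 to 0.0026). Other genes of that complex were divided: Kcnip1 rose, the pore subunit Kcnd1 fell, and Kcnip2, Kcnip3, Kcnip4 and Dpp6 did not pass. These other names were picked after their values were seen. The modifier subunit Kcns2 rose by 1.29 ± 0.26 and the beta subunit Kcnab2, at a mean count of 10800.3, fell by 0.75 ± 0.12 (the authors' deposited table, adjusted p from 2.87e-08 to 2.03e-05). Of 18 inward rectifier and leak channels, 16.7% rose and 11.1% fell. The leak channels Kcnk2 (1.39 ± 0.29), Kcnk9 (0.82 ± 0.27) and Kcnk10 (1.06 ± 0.29) rose (the authors' deposited table, adjusted p from 4.44e-05 to 0.0184). Kcnj10 (-0.81 ± 0.13), the potassium-buffering Kir4.1 of Müller glia, and Kcnj9 (-0.53 ± 0.20), a G protein-gated channel, fell (the authors' deposited table, adjusted p from 1.37e-07 to 0.0413).

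Of 25 voltage-gated calcium channel genes, 6 rose and 4 fell. Cacnb3 (0.97 ± 0.14), Cacna2d1 (0.95 ± 0.16) and the L-type pore subunit Cacna1c (0.82 ± 0.24) rose (the authors' deposited table, adjusted p from 6.35e-10 to 0.00644). Cacna2d3 (-0.96 ± 0.23), an auxiliary subunit, and Cabp4 (-0.71 ± 0.16), the calcium sensor of photoreceptor terminals, fell (the authors' deposited table, adjusted p from 2.42e-04 to 6.52e-04). HCN channels and cyclic nucleotide gated channels, of which the latter carry the photoreceptor light response, gave 1 rise and 4 falls of 9. Cnga1 (-0.45 ± 0.15) of rods, and Cnga3 (-0.67 ± 0.21) and Cngb3 (-0.48 ± 0.17) of cones fell, and Hcn3 (0.46 ± 0.13) rose, (the authors' deposited table, adjusted p from 0.00457 to 0.0299). With trends of transcript length and GC content over all genes removed, Cngb3 no longer passed and 2 of the list passed as lower. Photoreceptor markers fell beside these channels, by the counts given above, and their part in the falls was not tested.

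Among TRP and chloride channels (4 rises and 4 falls of 25), Trpc4 (0.79 ± 0.18) and Trpc5 (0.88 ± 0.29) rose, and Trpc1 (-0.77 ± 0.18) and the chloride extruder Slc12a5 (-0.42 ± 0.13) fell, (the authors' deposited table, adjusted p from 1.76e-04 to 0.0188). Ion pumps and exchangers gave 3 rises and 3 falls of 25, shares near those of all genes. The sodium-calcium exchanger Slc8a2 (1.74 ± 0.18) and the calcium release channels Ryr1 (1.82 ± 0.30) and Itpr2 (0.92 ± 0.23) rose (the authors' deposited table, adjusted p from 2.21e-19 to 0.00106). Slc24a1 (-0.76 ± 0.22) and Slc24a4 (-0.71 ± 0.20), exchangers of the potassium-dependent family, which includes the rod exchanger, fell (the authors' deposited table, adjusted p from 0.00576 to 0.00579).

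Receptor genes were counted by transmitter. Of 21 ionotropic glutamate receptor genes, 8 rose and 1 fell, with a median of 0.35. The rises included 4 kainate receptor subunits, among them Grik2 (0.84 ± 0.25) and Grik3 (1.03 ± 0.18), and Neto2 (1.72 ± 0.19), their auxiliary protein, (the authors' deposited table, adjusted p from 4.91e-18 to 0.00783). The AMPA receptor subunit Gria2 (0.48 ± 0.14) and its partner Cnih2 (0.49 ± 0.13) rose (the authors' deposited table, adjusted p from 0.00223 to 0.00803). Grik1, the kainate receptor of OFF bipolar cells, fell by 0.40 ± 0.15 (the authors' deposited table, adjusted p = 0.0395). Of 21 GABA and glycine receptor genes, 5 rose and 2 fell. Gabrg3 (1.51 ± 0.21), Gabrg1 (0.88 ± 0.29), Glra2 (0.84 ± 0.28) and Gabbr1 (0.37 ± 0.10) rose, and Gabrr2 (-0.78 ± 0.18), of the retinal GABA-C receptor, fell (the authors' deposited table, adjusted p from 9.49e-11 to 0.0184). Of 19 acetylcholine and monoamine receptor genes, the nicotinic subunits Chrna5 (0.42 ± 0.10), Chrna7 (0.53 ± 0.10) and Chrnb2 (0.39 ± 0.10) rose and the adrenergic receptor Adrb1 (-0.58 ± 0.18) fell (the authors' deposited table, adjusted p from 1.83e-05 to 0.00969).

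Release machinery was split, with 8 rises and 7 falls of 42 synaptic vesicle and active zone genes and a median of 0.02. Syt5 (1.08 ± 0.28), a synaptotagmin, and Syn1 (0.45 ± 0.13), synapsin 1 of conventional synapses, rose (the authors' deposited table, adjusted p from 0.00195 to 0.00571). Stx3 (-0.35 ± 0.09), the syntaxin of ribbon synapses, and Sv2b (-0.35 ± 0.09), a vesicle protein, fell (the authors' deposited table, adjusted p from 0.00183 to 0.0024). Postsynaptic genes gave 6 rises and 2 falls of 29, and the synaptic adhesion protein Lrrtm2 rose by 0.69 ± 0.12 (the authors' deposited table, adjusted p = 2.12e-07). Activity-regulated genes, which neurons switch on when they fire, gave 1 rise and 0 falls of 16 (3 and 1 with p under 0.05 before adjustment). Fos (0.09 ± 0.24), Arc (0.13 ± 0.30), Egr1 (-0.12 ± 0.21) and Nr4a1 (-0.45 ± 0.17) did not pass (the authors' deposited table, adjusted p from 0.0506 to 0.846), while Nr4a3 (0.82 ± 0.25) rose (adjusted p = 0.00906).

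Immune genes of the microglial kind were higher in the Pou3f1 libraries. Microglia are the resident macrophages of retina and brain, and do not descend from retinal progenitors. Of 20 microglia genes, 19 rose and 0 fell, with a median log2 fold change of 1.43 and a range from 0.75 to 2.31. The complement genes C1qa (1.80 ± 0.25), C1qb (1.73 ± 0.25) and C1qc (1.87 ± 0.24) rose (the authors' deposited table, adjusted p from 1.00e-12 to 3.52e-10). The receptors Csf1r (1.71 ± 0.24), Cx3cr1 (1.66 ± 0.23) and Trem2 (1.42 ± 0.28) rose (the authors' deposited table, adjusted p from 1.01e-10 to 1.98e-05). The homeostatic markers Tmem119 (1.25 ± 0.28) and P2ry12 (1.02 ± 0.25) rose too (the authors' deposited table, adjusted p from 1.61e-04 to 7.73e-04). Mpeg1 (2.31 ± 0.22), a pore-forming protein of macrophages, and Ctss (2.22 ± 0.20), the protease cathepsin S, led the list (the authors' deposited table, adjusted p from 5.58e-25 to 6.70e-23). The level of these genes was low: the list held 0.0137% of all mean counts. Per kb of the longest annotated transcript, the mean count was 154 for Csf1r and 88.6 for Cx3cr1 against 10624 for Glul, in the authors' deposited table.

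Pan-leukocyte genes rose in 9 of 14 and fell in 0, with a median of 0.79. Ptprc, which encodes CD45, rose by 1.39 ± 0.28 at a mean count of 50.7 (the authors' deposited table, adjusted p = 4.02e-05). Ikzf1 (1.81 ± 0.27), a lymphoid and myeloid factor, and Laptm5 (1.68 ± 0.26), a lysosomal protein of blood cells, rose (the authors' deposited table, adjusted p from 5.25e-09 to 8.70e-09). Genes of activated microglia and macrophages gave 9 rises (40.9%) and 3 falls (13.6%) of 22, with a median of 0.38. Adgre1 (1.67 ± 0.27), known as F4/80, Cybb (1.87 ± 0.29), the phagocyte oxidase, Itgax (1.27 ± 0.30) and Clec7a (1.24 ± 0.29) rose (the authors' deposited table, adjusted p from 2.03e-08 to 4.35e-04). The falls were Gpnmb (-0.83 ± 0.28), Cd9 (-0.46 ± 0.11) and Ctsb (-0.23 ± 0.09), named after their values were seen (the authors' deposited table, adjusted p from 6.92e-04 to 0.0339). Mrc1 (0.32 ± 0.27), of perivascular macrophages, and Cd74 (0.44 ± 0.30) did not pass (the authors' deposited table, adjusted p from 0.31 to 0.433). Ccr2, which marks monocytes arriving from blood, had a mean of 3.15 normalized counts in the authors' deposited table and was under the limit.

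Most defining markers of lymphocytes and granulocytes were at or near 0. Of 24 listed T and natural killer cell genes, 7 reached a mean count of 10, and 1 of these rose, Cd4 (0.88 ± 0.29, adjusted p = 0.0177), which macrophages also express, in the authors' deposited table. The T cell receptor complex genes Cd3d, Cd3e and Cd3g had mean counts of 0.88, 0.22 and 0.23 in the authors' deposited table, and the receptor gene Trac 1.54. The exception was Cd8a, which had a mean count of 179.9 and -0.08 ± 0.17 in the authors' deposited table and did not pass (adjusted p = 0.791). Among B cell genes, Cd79a (4.33) had a mean count under the limit in the authors' deposited table. Of the 4 tested, Ighm (1.18 ± 0.28) rose and Jchain (-0.88 ± 0.19) and Ms4a1 (-0.61 ± 0.23) fell (the authors' deposited table, adjusted p from 7.34e-05 to 0.0364). Ms4a1 no longer passed once the trends of transcript length and GC content were removed. Of 3 neutrophil and mast cell genes tested, 2 rose and 0 fell, with Csf3r (0.89 ± 0.20), a granulocyte growth factor receptor, among the rises (the authors' deposited table, adjusted p = 1.56e-04). The neutrophil genes S100a8 and S100a9 had mean counts of 0.35 and 0.22 in the authors' deposited table.

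Genes for leukocyte passage through vessels were seldom higher. Of 17 endothelial adhesion and entry genes, 1 rose and 4 fell, with a median of -0.55. The risen member was Itgal (1.304 ± 0.29), a leukocyte integrin subunit, and the fallen ones Itga4 (-0.42 ± 0.11), an integrin subunit, and the vessel genes Flt1 (-0.86 ± 0.21), Esam (-0.73 ± 0.23) and Plvap (-0.94 ± 0.28) (the authors' deposited table, adjusted p from 2.23e-04 to 0.0119). The selectins Sele and Selp, which slow leukocytes on vessel walls, had mean counts of 0.77 and 0.91 in the authors' deposited table. Chemokine and cytokine genes gave 1 rise and 5 falls of 19 tested, while 18 listed genes were under the abundance limit. Ccl2 (3.91), Ccl5 (1.42), Il1b (2.45), Il6 (0.71) and Tnf (1.2) were among these, by mean count in the authors' deposited table, and were picked after their values were seen. Cxcl14 rose by 0.88 ± 0.24, and Il33, Lif (-0.99 ± 0.29), Cxcl16 (-0.46 ± 0.15) and Ccl25 (-0.36 ± 0.11) fell, (the authors' deposited table, adjusted p from 0.00348 to 0.0181). The call of Ccl25 was lost with those trends removed.

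Interferon-stimulated genes were the list with the most risen members. Interferons bind receptors that activate transcription factors, among them STAT2 and IRF9, which switch on antiviral genes through the interferon response element. Of 57 interferon-stimulated genes, 43 rose, 1 fell and 13 did not pass, with a median of 1.02. Usp18, which removes ISG15 from proteins, rose by 3.10 ± 0.27 (the authors' deposited table, adjusted p = 4.47e-27), and Ifi27 by 2.74 ± 0.26 (adjusted p = 2.25e-23). The antiviral effectors Ifit1 (1.62 ± 0.30), Ifit3 (1.08 ± 0.27), Isg15 (1.45 ± 0.29) and Eif2ak2 (1.44 ± 0.20), which encodes PKR, rose (the authors' deposited table, adjusted p from 2.83e-10 to 9.98e-04). Irgm1 (1.89 ± 0.26), an immunity-related GTPase, and Oas1b (1.72 ± 0.24), of the 2′-5′ oligoadenylate synthetases, rose (the authors' deposited table, adjusted p from 3.83e-11 to 2.25e-10). The signalling gene Irf7 rose by 1.02 ± 0.23 (the authors' deposited table, adjusted p = 1.76e-04). Gbp5, a guanylate-binding protein, fell by 0.71 ± 0.16 (the authors' deposited table, adjusted p = 1.44e-04) as the only fallen member, picked after its values were seen. The mouse Oas1, Ifit3 and Gbp families hold near-identical copies, among which the authors' counting may split reads.

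Sensors of foreign nucleic acid gave 9 rises and 1 fall of 24. The RNA sensors Ifih1 (1.51 ± 0.26) and Ddx58 (1.13 ± 0.22), which encode MDA5 and RIG-I, and the DNA sensors Ifi204 (1.65 ± 0.29), Zbp1 (1.70 ± 0.30) and Tlr9 (1.32 ± 0.29) rose (the authors' deposited table, adjusted p from 4.22e-07 to 1.73e-04). Ifng, the gene of interferon gamma, had a mean of 0.18 normalized counts in the authors' deposited table. MHC class I genes, which display peptides to CD8 T cells, rose in 11 of 22, with none called lower and a median of 0.55. B2m (1.41 ± 0.24), the shared light chain, H2-K1 (0.82 ± 0.23) and the peptide transporter Tap1 (1.23 ± 0.26) rose (the authors' deposited table, adjusted p from 5.54e-07 to 0.00392). The nonclassical genes H2-T23 (1.27 ± 0.24), H2-T22 (1.16 ± 0.19), H2-Q4 (0.88 ± 0.17) and H2-Q6 (1.34 ± 0.23) rose (the authors' deposited table, adjusted p from 1.06e-07 to 6.47e-06), with the same uncertainty between near-identical copies. MHC class II genes gave 1 rise of 7 tested, H2-DMa (0.75 ± 0.24), and H2-Ab1 (0.72 ± 0.29) and H2-Eb1 (0.49 ± 0.30) did not pass, (the authors' deposited table, adjusted p from 0.0146 to 0.24). The microglial markers rose beside the interferon and MHC genes (19 of 20, median 1.43, at 0.0137% of all mean counts against 0.0636% for the interferon-stimulated list), and their part in these rises was not tested.

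The interferon response element, searched as GAAA, any 2 bases and GAAA again on either strand, stood in the 250 bases before the start in 13 of 37 promoters (35.1%) of the risen interferon-stimulated genes that had a RefSeq promoter. It stood in 3.35% of promoters of all risen genes, 2.38% of those of fallen genes, 2.61% of those of all kept genes and 2.98% of all promoters in the table. Windows of 60 bases on the gene's strand are shown for 5 risen genes, with each match in capitals, since they carry the element in both orientations and in overlapping copies.
Isg15: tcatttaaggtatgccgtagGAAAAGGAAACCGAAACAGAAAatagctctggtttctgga
Ifit1: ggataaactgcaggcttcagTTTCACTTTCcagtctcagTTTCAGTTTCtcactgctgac
Irgm1: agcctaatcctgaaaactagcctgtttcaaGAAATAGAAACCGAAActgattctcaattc
Oas1a: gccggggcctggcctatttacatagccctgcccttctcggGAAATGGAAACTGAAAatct
B2m: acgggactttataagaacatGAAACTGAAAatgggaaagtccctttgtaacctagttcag
On GRCm38.p6 they lie at chr4:156200857-156200916 (minus) for Isg15, chr19:34640765-34640824 (plus) for Ifit1 and chr11:48871421-48871480 (minus) for Irgm1. The other windows are chr5:120907526-120907585 (minus) for Oas1a and chr2:122147528-122147587 (plus) for B2m. The 250 bases hold 3 matches for Isg15, 2 for Ifit1, 2 for Irgm1, 2 for Oas1a and 1 for B2m, overlapping matches counted separately. Oas1a, picked after its values were seen, rose by 1.90 ± 0.30 (the authors' deposited table, adjusted p = 1.36e-08).

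Complement and inflammatory signalling lists each held both rises and falls. Besides the C1q genes, Itgam (1.14 ± 0.21), the integrin CD11b, rose, and Cfi (-1.18 ± 0.24), an inhibitor of complement, fell (the authors' deposited table, adjusted p from 3.19e-06 to 4.11e-05), with 6 rises and 2 falls of 16. C3 (0.08 ± 0.29), C4b (-0.45 ± 0.26) and Serping1 (-0.22 ± 0.27), which reactive glia can induce, did not pass (the authors' deposited table, adjusted p from 0.21 to 0.881). Genes of NF-κB, TNF and JAK-STAT signalling gave 3 rises (8.33%) and 5 falls (13.9%) of 36, near the 12.7% and 10.3% of all tested genes. Socs1 (0.89 ± 0.28) and Stat5a (0.73 ± 0.23) rose, and Tnfaip3 (-0.78 ± 0.26, mean count 8341), Nfkbiz (-0.78 ± 0.16) and the oncostatin receptor gene Osmr (-0.88 ± 0.23) fell (the authors' deposited table, adjusted p from 5.39e-05 to 0.0181).

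Among glial genes, those for transport and homeostasis gave falls and no rises. Müller glia span the retina, recycle glutamate and retinoids and buffer water, potassium and acid. Of 26 glial transport and homeostasis genes, 0 rose (0 with p under 0.05 before adjustment) and 11 fell, with a median of -0.36. Glul, glutamine synthetase, fell by 0.96 ± 0.19 at a mean count of 29664 (the authors' deposited table, adjusted p = 1.51e-05). Slc16a1 (-0.84 ± 0.18), a lactate transporter, and Car14 (-0.73 ± 0.14), a carbonic anhydrase, fell with Aqp4 and Kcnj10 (the authors' deposited table, adjusted p from 1.30e-05 to 5.77e-05). In the Müller glia list 3 genes rose, 15 fell and 29 did not pass of 47, with a median of -0.22. Rlbp1 (-0.42 ± 0.14), the retinoid carrier CRALBP, fell (the authors' deposited table, adjusted p = 0.0223). Sox9 (-0.06 ± 0.14), a fate factor, Vim (-0.09 ± 0.27), vimentin, and Slc1a3 (-0.22 ± 0.15), the glutamate transporter GLAST, did not pass (the authors' deposited table, adjusted p from 0.313 to 0.854). Defining Müller genes therefore divided into 4 that fell and 3 that did not pass.

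Of 21 reactive gliosis genes tested, 1 rose and 5 fell, with a median of -0.30. Gfap (-0.41 ± 0.29), Lcn2 (-0.59 ± 0.24) and Serpina3n (-0.71 ± 0.30), the usual markers, did not pass (the authors' deposited table, adjusted p from 0.0622 to 0.341). Edn2 (-0.78 ± 0.28), the endothelin that stressed photoreceptors make, Fgf2 (-1.01 ± 0.28), a survival factor of injured retina, Cebpd (-0.73 ± 0.26) and the small heat shock gene Cryab (-0.46 ± 0.16) fell (the authors' deposited table, adjusted p from 0.00356 to 0.0329). Mt3 (1.64 ± 0.18), the neuronal metallothionein, rose (the authors' deposited table, adjusted p = 1.56e-16). Astrocyte genes gave 1 rise, Fgfr3 (0.88 ± 0.28), and 2 falls, Slc1a2 (-0.39 ± 0.11) and Aldoc (-0.61 ± 0.09), of 9 (the authors' deposited table, adjusted p from 7.33e-09 to 0.0124). Of 4 oligodendrocyte lineage genes tested, 2 rose, Ermn (1.02 ± 0.30) and Mbp, and 0 fell, with a median of 0.50 (the authors' deposited table, adjusted p from 0.00103 to 0.00583). Sox10 (0.62 ± 0.28), a defining marker, did not pass (the authors' deposited table, adjusted p = 0.0941). The factors Olig1 and Olig2 were under the limit, with mean counts of 2.05 for Olig1 and 8.67 for Olig2 in the authors' deposited table.

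Notch signalling holds cells as progenitors or glia. Notch and gliogenic signalling genes together gave 6 rises and 1 fall of 30, with a median of 0.07. Dll3 (1.39 ± 0.29), Id4 (0.80 ± 0.23), Nfib (0.69 ± 0.15) and Hes6 (0.60 ± 0.14), an antagonist of Hes1, rose and the ligand Jag1 (-0.69 ± 0.21) fell (the authors' deposited table, adjusted p from 5.62e-05 to 0.0106). Vessel genes fell beside the glial ones: of 19 vessel and mural cell genes with a p-value, 0 rose and 6 fell, with a median of -0.62 and all 19 values below 0. Sox17 (-1.18 ± 0.29), Sox18 (-0.81 ± 0.30) and Flt1 are endothelial and fell, as did Vtn (-0.90 ± 0.26), made by pericytes, (the authors' deposited table, adjusted p from 8.91e-04 to 0.0328). The defining markers Pecam1 (-0.67 ± 0.29), Cdh5 (-0.62 ± 0.28) and Cldn5 (-0.57 ± 0.28) did not pass (the authors' deposited table, adjusted p from 0.084 to 0.136). Of the 35 kept genes without a p-value, several are vessel or matrix genes, among them the mural marker Rgs5 at -0.44 ± 0.29 in the authors' deposited table. The part of vessel cells in the glial falls was not tested. Markers of other tissues were few: lens genes gave 2 rises and 1 fall of 5, epidermal genes 0 and 1 of 5, red blood cell genes 0 and 1 of 5, fibroblast genes 2 and 0 of 16, and pigment epithelium genes 2 and 0 of 10.

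Glycolysis genes were lower. Photoreceptors rely heavily on aerobic glycolysis, in which glucose is turned to lactate even in the presence of oxygen. Of 32 glycolysis genes, 1 rose, 16 fell and 15 did not pass, with a median of -0.24. Hk2 (-0.99 ± 0.17), the hexokinase of photoreceptors, Aldoa (-0.51 ± 0.11, mean count 69202) and Aldoc (-0.61 ± 0.09), the aldolases, fell (the authors' deposited table, adjusted p from 7.33e-09 to 1.69e-04). Ldha (-0.17 ± 0.10), lactate dehydrogenase A, did not pass (the authors' deposited table, adjusted p = 0.21). The risen member was Pdk4 (2.42 ± 0.24, adjusted p = 3.22e-21), a kinase that closes the way from pyruvate into the mitochondrion, in the authors' deposited table. Rod and cone genes fell beside these genes (28 of 35 and 12 of 16, medians of -0.47 and -0.67), and their part was not tested.

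Subunits of the respiratory chain are encoded in both the mitochondrial and the nuclear genome. Of 13 mitochondrially encoded subunit genes, 0 rose and 12 fell, with a median of -0.44 and a range from -0.50 to -0.24. The lowest was mt-Nd6 (-0.50 ± 0.14), with mt-Atp6 (-0.47 ± 0.12), mt-Co2 (-0.46 ± 0.12) and mt-Nd2 (-0.44 ± 0.12) close to it (the authors' deposited table, adjusted p from 0.00125 to 0.00288). Of 73 nuclear genes of the same complexes, 0 rose (2 with p under 0.05 before adjustment) and 3 fell, with a median of -0.02; Uqcrh (-0.36 ± 0.10) and Uqcrb (-0.28 ± 0.10) were among the falls (the authors' deposited table, adjusted p from 0.00288 to 0.0224). The mitochondrial calls depended on the processing: with trends of transcript length and GC content over all genes removed, 1 of the 13 passed as lower, and Uqcrb lost its call. The difference between the mitochondrial and nuclear lists was not tested. Tricarboxylic acid cycle genes gave 3 rises and 4 falls of 31, with Idh2 (0.56 ± 0.16) higher and Got1 (-0.38 ± 0.12) lower (the authors' deposited table, adjusted p from 0.00656 to 0.0146).

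**Figure D4:**
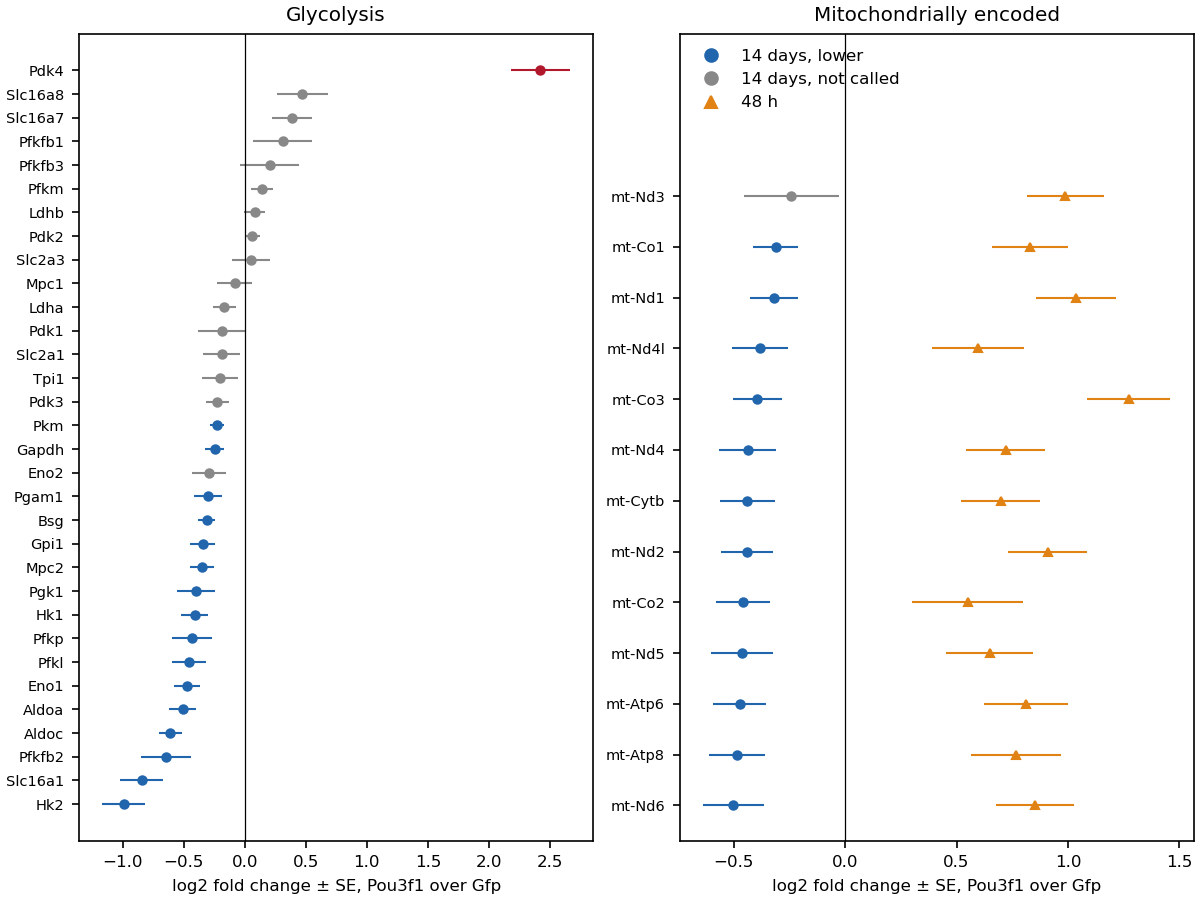
Log2 fold change of Pou3f1 over Gfp with SE bars for 32 glycolysis genes at 14 days (left) and 13 mitochondrially encoded genes at 14 days (circles) and 48 h (triangles) (right); blue passed as lower at 14 days, red as higher and grey did not pass. All mitochondrial values lie between -0.50 and -0.24 at 14 days and all are above 0 at 48 h, while Pdk4 stands alone at 2.42 among glycolysis genes.

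The lipid lists held both rises and falls, as did all tested genes, of which 12.7% rose and 10.3% fell. Of 32 sterol genes 7 rose (21.9%) and 2 fell (6.25%), with a median of 0.03. Acat2 (0.61 ± 0.09), the exporter Abca1 (0.59 ± 0.16) and the regulator Srebf2 (0.31 ± 0.09) rose (the authors' deposited table, adjusted p from 1.23e-08 to 0.00495). Fatty acid synthesis genes gave 4 rises and 3 falls of 25. The binding proteins Fabp7 (1.29 ± 0.18), of radial glia and progenitors, and Fabp5 (0.86 ± 0.20) rose with Fasn (0.55 ± 0.12), fatty acid synthase, and the photoreceptor gene Fabp12 (-0.64 ± 0.17) fell (the authors' deposited table, adjusted p from 1.39e-10 to 0.00296). Fatty acid oxidation genes gave 1 rise (4.76%) and 6 falls (28.6%) of 21. Cpt1a (-0.35 ± 0.09), the entry enzyme, Acadm (-0.49 ± 0.16) and the regulators Ppara (-0.54 ± 0.20) and Ppargc1a (-0.60 ± 0.19) fell (the authors' deposited table, adjusted p from 0.00275 to 0.0342).

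Of 23 retinoid genes 3 rose and 7 fell. Aldh1a2 (2.22 ± 0.30, mean count 31.2), which makes retinoic acid, and Crabp1 (1.08 ± 0.28), which binds it, rose, while the visual cycle genes Rdh12 (-0.55 ± 0.15) and Rdh11 (-0.40 ± 0.10) fell (the authors' deposited table, adjusted p from 1.37e-11 to 0.00206). Arginine and creatine genes gave 2 rises and 4 falls of 18, with Gatm (0.91 ± 0.27), of creatine synthesis, higher and Arg2 (-0.74 ± 0.19) and the endothelial nitric oxide synthase Nos3 (-0.74 ± 0.21) lower (the authors' deposited table, adjusted p from 0.00195 to 0.00718). Serine and one-carbon genes gave 2 rises and 0 falls of 22, and antioxidant genes 3 rises and 0 falls of 26, both with small changes: Txnrd1, thioredoxin reductase, had 0.41 ± 0.09 (the authors' deposited table, adjusted p = 5.64e-05).

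Genes of the unfolded protein and integrated stress response gave 0 rises (0 with p under 0.05 before adjustment) and 8 falls of 25, with a median of -0.18. Hspa5 (-0.39 ± 0.12), the chaperone BiP, Xbp1 (-0.34 ± 0.12) and Ddit3 (-0.47 ± 0.12), known as CHOP, fell (the authors' deposited table, adjusted p from 0.00162 to 0.0209). Vldlr, in this list as a stress target and also a lipoprotein receptor of photoreceptors, fell by 0.51 ± 0.08 (the authors' deposited table, adjusted p = 2.78e-08). Cell death and p53 genes gave 5 rises and 3 falls of 24. Trp53 (0.60 ± 0.14), which encodes p53, and the survival gene Bcl2l1 (0.40 ± 0.10) rose, and Gadd45b (-1.02 ± 0.27) fell, (the authors' deposited table, adjusted p from 2.08e-04 to 0.00228). The p53 targets Cdkn1a (-0.20 ± 0.16) and Mdm2 (-0.04 ± 0.07) did not pass (the authors' deposited table, adjusted p from 0.399 to 0.731). Cell cycle genes gave 12 rises and 1 fall of 40, with a median of 0.32. Cdk4 (0.88 ± 0.16) and the replication genes Mcm5 (0.73 ± 0.19), Mcm6 (0.82 ± 0.20) and Mcm7 (0.42 ± 0.10) rose (the authors' deposited table, adjusted p from 1.15e-06 to 0.00186), whereas the mitotic markers Mki67 (0.44 ± 0.29), Top2a (0.62 ± 0.30) and Cdk1 (0.53 ± 0.30) did not pass (adjusted p from 0.121 to 0.278).

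The late change was then set against the change at 48 h, a comparison with other libraries. Of 14274 genes with an adjusted p at both times, the log2 fold change at 14 days was above that at 48 h for 654 (4.58%) and below it for 239 (1.67%), by a two-sided z test on the difference with the SE of both values and Benjamini-Hochberg adjustment over all 14274. The test made no allowance for shrinkage of the fold changes, which may differ between the times. All 16 leading rises were larger at 14 days by this test, but they were chosen by their 14 day values, so the choice itself favoured this outcome. Pmch had -0.40 ± 0.23 at 48 h and a difference of 5.40 ± 0.34 (z test, adjusted p = 4.01e-51) in the authors' deposited table. Kmo had -0.10 ± 0.28 at 48 h and differed by 5.48 ± 0.37 (z test, adjusted p = 7.26e-47) in the authors' deposited table. Scin and Myo18b differed by 4.67 ± 0.32 and 4.13 ± 0.33 in the same test (adjusted p from 1.80e-45 to 3.10e-33). Pou4f2, at -0.30 ± 0.29 at 48 h, differed by 3.95 ± 0.39 (z test, adjusted p = 2.20e-20), whereas Eomes and Ebf3 were already higher at 48 h, by 1.34 ± 0.24 and 1.13 ± 0.24 in the authors' deposited table, and still differed by 1.72 ± 0.36 and 1.55 ± 0.34 (adjusted p from 1.28e-04 to 4.87e-04). Pou3f1 itself had 0.91 ± 0.26 at 48 h at a mean of 37279 normalized counts in the authors' deposited table. Its change differed by 4.67 ± 0.38 between the times (z test, adjusted p = 1.19e-31). By these values the Pou3f1 and Gfp groups were far less apart in Pou3f1 at 48 h than at 14 days. Every contrast between the times given here carries this limit.

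The share of all genes called at 48 h and their median were not computed. The 48 h counts and medians of lists below are therefore descriptions with no background beside them. Of 48 interferon-stimulated genes tested at 48 h, 0 rose and 0 fell (2 and 1 with p under 0.05 before adjustment), and in 27 of 48 the change at 14 days was above that at 48 h. Among microglia genes 1 of 12 rose at 48 h, and 10 of 12 differed upward. Pan-neuronal genes differed upward in 15 of 47 and guidance genes in 20 of 71. Glycolysis genes differed upward in 1 of 32, Pdk4, and downward in 0. At 48 h their median was already -0.36, with 0 rises and 3 falls of 32 (0 and 16 with p under 0.05 before adjustment). Glial transport genes differed downward in 1 of 24. Müller glia genes had fallen in 7 of 45 and Notch and gliogenic signalling genes in 7 of 29 at 48 h, and 5 of 45 and 7 of 29 differed upward. The mitochondrially encoded genes differed downward in 13 of 13, having risen in 11 of 13 at 48 h.

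**Figure D5:**
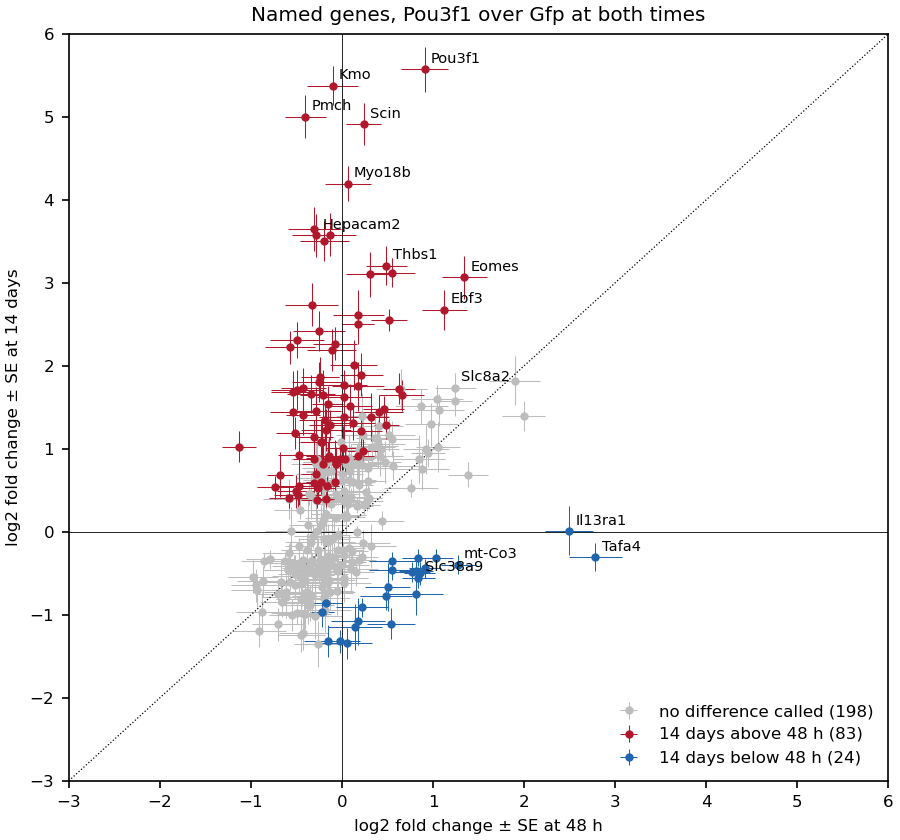
Log2 fold change of Pou3f1 over Gfp at 14 days (vertical axis) against 48 h (horizontal axis) for the 305 named genes tested at both times, with SE bars and a dotted line of equal change. Red marks the 83 genes whose change at 14 days was above that at 48 h and blue the 24 below it. Many of these genes were named for their 14 day change or for the difference itself. Their shares are therefore not those of all 14274 tested genes, 4.58% above and 1.67% below. Kmo, Pmch, Scin and Myo18b lie near 0 at 48 h and above 4 at 14 days.

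The median GC content of the longest annotated transcript was 50.9% for risen, 47.7% for fallen and 49.6% for all tested genes, and its median length 3.72, 3.59 and 3.41 kb. Protein-coding genes made up 98.7% of the genes that rose, 92.2% of those that fell and 95.4% of tested genes. On the X chromosome 17.7% of 541 tested genes rose and 6.65% fell, against 12.7% and 10.3% over all chromosomes. These are descriptions with no test.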

How the data were processed

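RNA-seq libraries of sorted retina cells were compared by the authors within each time, and the finished comparisons were deposited. Per the file headers, each gene has a base mean, which is the signal averaged over libraries as a normalized count, and a log2 fold change made by the authors. The deposited standard error and Wald statistic are held as score values, and the authors' p-value stands beside its Benjamini-Hochberg adjusted form. Salmon, DESeq2, MACS2 and the build mm10 are named in the submitters' processing notes, with no versions, and the gene annotation and design formula are not stated there. No values per library, and so no library depths, were used here. Fold changes over SE gave the listed Wald statistics within 4.45e-07. The 4 + 5 libraries at 14 days and 3 + 3 at 48 h were grouped by title. The tables do not state their direction: a positive value was read as higher with Pou3f1, because Pou3f1 itself is positive at both times.

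From these tables, called genes were counted, and the 14 day minus 48 h difference was tested with a two-sided z test (Python 3.11.15, pandas 2.3.3, numpy 2.4.6, scipy 1.17.1), a procedure tested on simulated data; figures were drawn with matplotlib 3.10.9. Where 14 symbols had more than 1 identifier the one with the larger mean was used in lists. Identifiers were matched to a GENCODE annotation for 15677 of 15696 genes (99.9%), which gave coordinates, transcript lengths and GC content. Genes were named by rule: Pou3f1, the 15 largest rises and falls and the 10 largest by Wald statistic in each direction with a mean count of at least 100, 5 called genes per list by smallest adjusted p, defining markers, and 8 genes in each direction by the difference between times. Names outside this rule are marked as picked after their values were seen, and so were the genes named only for a mean count under the limit, unless they are defining markers. Members and lists were chosen with earlier results of these data known. The values of some genes that these rules name are not reported here. A further list, of imprinted genes, was written after the values were seen. A sterol response element was also searched by its letters and stood in 0.95% of promoters of risen, 0.794% of fallen and 0.974% of all kept genes. Alternatives changed the p threshold, the fold limit, the abundance limit, the genes adjusted over, the centre of the fold changes and trends with transcript length and GC content.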

Additional observations from a re-analysis of the deposited data

Results flagged for a closer look

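These genes had log2 fold changes of Pou3f1 over Gfp that differed between 14 days and 48 h by the two-sided z test with Benjamini-Hochberg adjustment, and had the smallest adjusted p in each direction. Above 0, the 14 day minus 48 h differences were 5.40 ± 0.34 for Pmch, 5.48 ± 0.37 for Kmo, 4.67 ± 0.32 for Scin, 4.67 ± 0.38 for Pou3f1, 4.13 ± 0.33 for Myo18b, 3.95 ± 0.39 for Pou4f2, 3.69 ± 0.36 for Fst and 3.86 ± 0.36 for Hepacam2 (adjusted p from 4.01e-51 to 2.20e-20). Hepacam2, an adhesion molecule of the immunoglobulin family, had -0.29 ± 0.26 at 48 h and 3.57 ± 0.26 at 14 days in the authors' deposited tables. Below 0, the difference was -3.09 ± 0.33 for Tafa4, a secreted chemokine-like protein, which was higher at 48 h by 2.78 ± 0.29 and had -0.31 ± 0.17 at 14 days in the authors' deposited tables. Il13ra1, a subunit of the interleukin 13 receptor, behaved alike, with 2.49 ± 0.26 at 48 h, 0.01 ± 0.30 at 14 days and a difference of -2.48 ± 0.39. Slc38a9, a lysosomal amino acid sensor, went from 0.84 ± 0.18 at 48 h to -0.55 ± 0.12 at 14 days and so changed direction, with a difference of -1.39 ± 0.22. Mitochondrially encoded genes were above 0 at 48 h and below 0 at 14 days, with differences of -1.67 ± 0.22 for mt-Co3, -1.36 ± 0.21 for mt-Nd1, -1.35 ± 0.22 for mt-Nd6, -1.35 ± 0.21 for mt-Nd2 and -1.14 ± 0.20 for mt-Co1. With trends of transcript length and GC content removed at 14 days, 1 of the 13 mitochondrial genes passed as lower at that time, and the difference between times was not computed with those trends removed.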

How the results depend on the processing

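Against 3603 genes called at 14 days, an adjusted p under 0.01 left 2033 (1246 higher and 787 lower), and a limit of 2-fold left 476 (411 higher and 65 lower). The other alternatives for that count ran from 3001, with a mean count of at least 100, to 3757, with the median fold change subtracted. For the difference between times, an adjusted p under 0.01 left 349 genes above 0 and 95 below. For 402 named genes the direction was followed under 2 alternatives, and no called gene was reversed: subtracting the median changed the call of 1, and removing trends with transcript length and GC content made 17 lose and 2 gain theirs. Of 126 list counts, 49 moved by more than 1.5 times at an adjusted p under 0.01, 28 with a mean count of at least 100, 11 with the trends removed and 2 with the median subtracted. The trend removed lay between -0.10 and 0.05 for the genes from the 5th to the 95th percentile and reached -0.758 and 0.538 at its extremes. No paired analysis was possible because the deposited tables hold no value per library, and no library could be left out in turn for the same reason. Depth per library is unknown, so whether a gene that did not pass was beyond detection cannot be told.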

Other observations

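Imprinted genes, expressed from the maternal or the paternal copy, were looked at after Peg10 was seen among the leading rises. Of 41 tested members of a list written at that point, 15 rose and 1 fell, with a median log2 fold change of 0.13. Magel2 (2.06 ± 0.27) and Ndn (0.34 ± 0.11), neighbours in the Prader-Willi region, rose (the authors' deposited table, adjusted p = 8.86e-12 and 0.0103). Mkrn3 (0.09 ± 0.11), Snrpn (0.20 ± 0.11), Snurf (0.14 ± 0.21) and Ube3a (0.07 ± 0.14) of that region did not pass (the authors' deposited table, adjusted p = 0.629, 0.186, 0.682 and 0.77). Rtl1 (1.72 ± 0.29), derived from a retrotransposon as Peg10 is, Sfmbt2 (1.71 ± 0.23), a Polycomb protein, and Nnat (1.54 ± 0.14), the small membrane protein neuronatin, rose (the authors' deposited table, adjusted p from 2.05e-26 to 2.78e-07). Sgce (0.17 ± 0.11) and Ppp1r9a (-0.02 ± 0.09), which lie near Peg10 on chromosome 6, did not pass in the authors' deposited table (adjusted p = 0.281 and 0.914). Asb4 (1.37 ± 0.29) and Calcr (0.82 ± 0.30), of the same stretch of chromosome 6, rose (the authors' deposited table, adjusted p = 6.40e-05 and 0.033), and Pon2 (-0.21 ± 0.18) and Pon3 (0.27 ± 0.30) did not pass (adjusted p = 0.426 and 0.566). Zrsr1, a splicing factor gene, fell by 0.38 ± 0.13 (the authors' deposited table, adjusted p = 0.0278). These genes and the list were picked with their values in view, so the count is no test of imprinted genes.

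Receptors for hormones and peptides, and the TRP channel Trpm8, were also seen among the large rises. The values in this paragraph were picked after they were seen. Trpm8, the cold-sensing channel, rose by 3.52 ± 0.27, and Pgr, the progesterone receptor, by 3.13 ± 0.27 (the authors' deposited table, adjusted p = 2.09e-35 and 5.38e-28). Hcrtr2 (2.06 ± 0.30), an orexin receptor, and Mc4r (2.05 ± 0.29), the melanocortin receptor of appetite circuits, rose (the authors' deposited table, adjusted p = 5.10e-10 and 4.21e-10). The receptors of the GDNF family Gfra1 (1.76 ± 0.16, mean count 1109.7) and Gfral (2.63 ± 0.29) rose (the authors' deposited table, adjusted p = 5.22e-25 and 1.18e-16). Pou3f2, a close relative of Pou3f1, rose by 1.43 ± 0.20 (the authors' deposited table, adjusted p = 3.28e-10). Genes of vessels at the blood-retina barrier, Mfsd2a (-1.05 ± 0.28) and Slco1c1 (-1.15 ± 0.30), fell (the authors' deposited table, adjusted p = 0.00214 and 0.00157).

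A p-value was missing for 35 kept genes, and their values stand outside every count. Among them are genes of vessels and basement membrane, such as Col4a1, Nid1, Lama2, Cspg4 and Rgs5.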
